A study of Arabidopsis thaliana with 2 samples.

Results

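The Arabidopsis stem table analysed here lists 733 genes, and 60 of them were annotated with DNA binding and lay outside the NAC, MYB, HD-ZIP and circadian clock genes. The members were found by the words "DNA binding" in the deposited molecular function terms, which 87 genes carried. From these, 27 genes were left out, namely those with NAC in the name or description, those whose gene name starts with MYB, ATHB- or HDG, and *GL2*, *TT8*, *LHY*, *CCA1*, *RVE8*, *RVE1* and *LNK2*. The rule itself uses no read count, but it was chosen with earlier results of these data known. The 733 genes it was applied to had been marked by the authors as lower in the *cep1* mutant. One deposited gene name had been turned into a date by spreadsheet software, and its identifier, AT3G02310, is that of *SEP2*. Of the 60 members, 44 carried the term for transcription factor activity with sequence-specific DNA binding, and the others were histones, DNA repair or polymerase proteins and regulators annotated only as binding DNA.

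RNA was sequenced from the mature main stem of *cep1*, a T-DNA insertion line of the papain-like cysteine protease gene *CEP1*, and of the Columbia-0 wild type (WT), with 1 library per genotype. Both samples were labelled as 25 d after flowering, untreated, from plants grown in a greenhouse at 20 °C with 16 h of light and 8 h of dark. The study's methods give a different growth temperature, and its account of the stages has *cep1* stems collected later after bolting than WT stems of the same stage, so that genotype and plant age cannot be told apart. The comparison asks which transcripts differ in a mature stem with a T-DNA insertion in *CEP1*. With no replicate of either genotype, the difference between the libraries could not be set against the spread between plants, and no p-value was computed. The authors had marked every gene of the table as lower in *cep1*, at a log2 ratio of -1 or below, so the direction of each ratio was given by the table and only its size is described. *CEP1* itself had 1269 reads in the WT against 15 in *cep1*, so the targeted gene was low in the library labelled *cep1*. The defining genes of stem xylem, *CESA4*, *CESA7*, *CESA8*, *IRX9*, *IRX10*, *XCP1* and *XCP2*, were not among the 733 genes and were not analysed here, so the tissue label could not be checked with them. Their absence from a table of lower genes does not mean that they were not expressed. The study reported *CESA4*, *CESA7*, *CESA8*, *IRX9* and *IRX10* as up-regulated in *cep1*.

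Transcription factors bind short DNA motifs in the promoters of their target genes and raise or lower their transcription. Plants hold large families of them, named after the fold that touches DNA, and members of one family often act in quite different organs. Some MADS factors specify floral organs, and some AP2/ERF factors answer to ethylene, drought and low oxygen. Some B3 and NF-Y factors drive seed maturation, and some B-box and Dof factors time flowering. Histones, DNA repair enzymes and RNA polymerase subunits also bind DNA, but without choosing target genes in this way.

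The 60 members together had 109350 reads in the WT, or 0.522% of that library (0.5186 to 0.5248, Wilson 95% limits), against 31208 reads or 0.141% (0.1398 to 0.1429) in *cep1*. Raw counts ran from 231 to 17204 in the WT and from 0 to 4745 in *cep1*. These intervals, and those of the ratios below, cover counting error only and not the spread between plants, with 1 library per genotype. Amplified reads without molecular tags are not separate molecules, so the intervals can be too narrow even for counting error. The library totals behind the shares were 20962056 reads in the WT against 22077141 in *cep1*. In RNA from whole stems, fewer cells that express a gene and less of its RNA per cell cannot be told apart.

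The log2 ratios of *cep1* to WT, on the scale of the authors' normalized counts, had a median of -1.76 over the 59 members with a read in *cep1*. Over all genes of the table with a read in *cep1* the median was -1.75. These medians leave out the genes without reads in *cep1*, which were 61 of the 733 genes and 1 of the members. With those genes placed at 3 reads the medians were -1.77 for the members and -1.86 for the table. On that same footing the quartiles were -2.51 and -1.32 for the members and -3.36 and -1.34 for the table. A log2 ratio of -2 or below, that is a level at least 4-fold lower in *cep1*, was found for 24 of the 60 members (40%), against 46.8% of all 733 genes, so the share is not a result about these genes. The log2 ratio was -3 or below for 8 of the 60 members, against 205 of the 733 genes of the table. One member had no read in *cep1* (1.67% of members against 8.32% of the table), and 3 members had at most 3 reads there (5.00% against 12.1%). For 5 members the upper 95% limit lay above -1 (8.33% against 9.82%). The 27 DNA-binding genes that were left out had a median of -2.29, and 16 of them were at least 4-fold lower. With counts scaled to the library totals in place of the authors' factors, every ratio shifts by -0.24, the median of the members becomes -2.0 and 30 members are at least 4-fold lower, the 6 added being *BHLH81*, *BLH5*, *CDF2*, *SPL4*, *NTH2* and *IAA28*. The ratios of all other genes of the table shift equally. The table's share on that scale was not computed, so the 30 cannot be set against 46.8%. The whole 95% interval lay at or below -2 for 20 of the 24 members, the exceptions being *DPBF4*, *AT5G28300*, *RAP2-1* and *BBX25*.

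**Figure D1:**
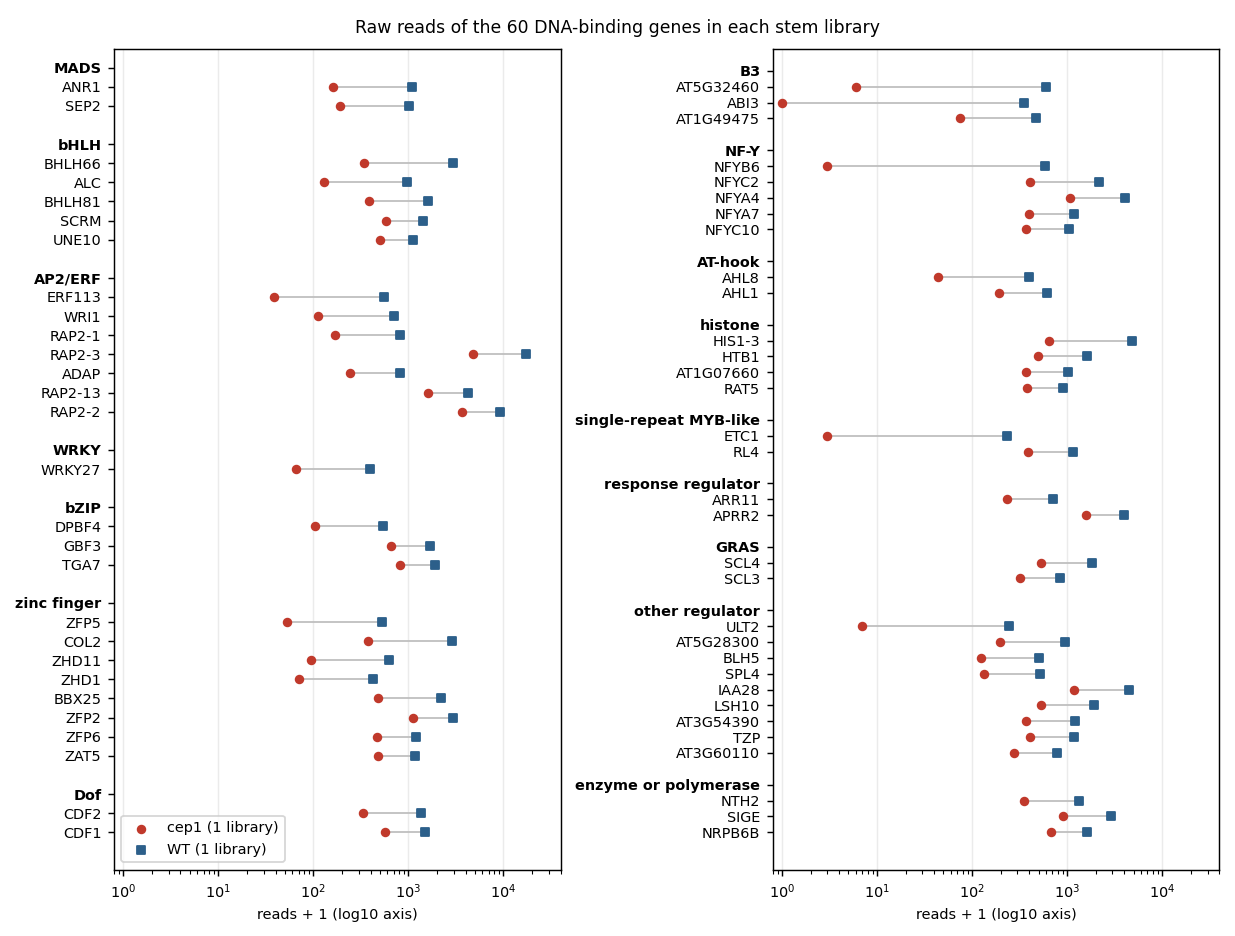
Raw reads plus 1 (log10 axis) of each of the 60 members in the 1 *cep1* library (red circles) and the 1 WT library (blue squares), ordered by family and, within a family, by log2 ratio. Every pair runs from fewer reads in *cep1* to more in the WT, which the table fixes, and *NFYB6*, *ABI3*, *ETC1*, *AT5G32460* and *ULT2* stand apart with at most 6 reads in *cep1*.

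**Figure D2:**
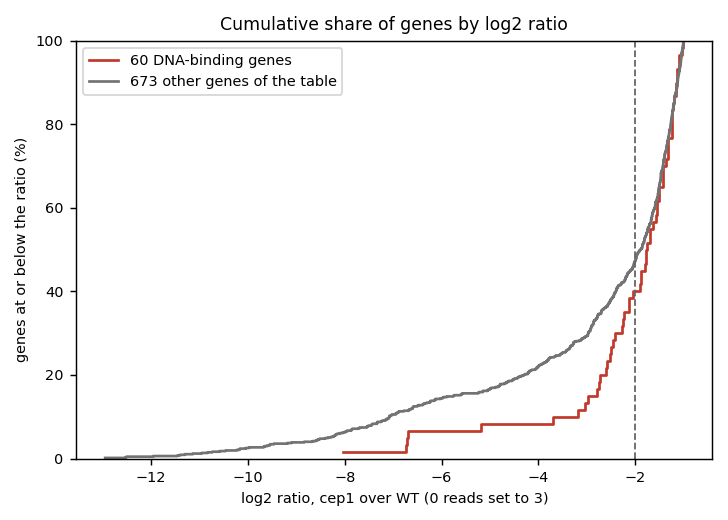
Share of genes (%) at or below each log2 ratio of *cep1* to WT, for the 60 members (red) and the 673 other genes of the table (grey), with genes at 0 reads in *cep1* placed at 3 reads and a dashed line at -2. The curves lie close together above -2, where 40% of members have been counted, and the members' curve lies below the other over the lower ratios.

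The plot of reads by member shows a few genes that were nearly absent from *cep1* and a large majority well covered by reads in both libraries, and the cumulative plot shows the same split as a thinner tail than in the rest of the table.

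The promoters of the members are shown here because shared letters in front of the genes are a property that the choice of members did not use. Motifs were searched on both strands of the 250 bases before and 50 bases after each gene's start in the RefSeq annotation of TAIR10.1, which matched all 60 members by locus tag, 640 other genes of the table and 27444 protein-coding genes in all. The evening element, AAAATATCT, is a motif bound by the clock proteins CCA1, LHY and RVE8. It lay in the windows of 5 members (8.33%), namely *COL2*, *WRI1*, *TZP*, *RAP2-2* and *AT5G28300*, against 2.34% of the other genes of the table and 2.82% of all windows. In *AT5G28300* it lies after the gene start. The stretches around the other matches follow, read in the direction of each gene, with the evening element in capitals (in *WRI1* and *RAP2-2* it reads on the opposite strand). None of them overlaps another annotated gene. They are chr3:489638-489667 (minus strand) for *COL2*, chr3:20114393-20114452 (plus) for *WRI1*, chr5:17526480-17526539 (plus) for *TZP* and chr3:4739349-4739408 (minus) for *RAP2-2*.
COL2: cataagttaccAAAATATCTtcttgttact
WRI1: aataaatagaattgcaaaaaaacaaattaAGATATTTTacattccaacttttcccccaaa
TZP: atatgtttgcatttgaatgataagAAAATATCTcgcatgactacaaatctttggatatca
RAP2-2: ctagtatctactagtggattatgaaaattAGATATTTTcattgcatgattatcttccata

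The genes of the 3 proteins that bind this motif were in the table, outside the 60 members. *LHY* had 7338 reads in the WT against 205 in *cep1*, *CCA1* had 9846 against 1162, and *RVE8* had 2992 against 341. The log2 ratios of the members with the motif were -2.79 for *COL2*, -2.50 for *WRI1*, -2.12 for *AT5G28300*, -1.37 for *TZP* and -1.15 for *RAP2-2*, and so lay on both sides of -2, as the members did as a whole. The related CCA1 site, AAAAATCT, was found in the windows of 7 members (11.7%), against 9.53% of the other genes of the table and 7.88% of all windows. A match of letters is not a bound site, and none of these shares was tested.

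The G-box, CACGTG, is bound by many bZIP and bHLH factors, and the ABRE core, here ACGTGG or ACGTGT, is the element through which abscisic acid acts on promoters. The ABRE core can share letters with a G-box. It was present in 21.7% of the members' windows, against 30.5% of the other genes of the table and 18.9% of all windows, and the G-box was present in 8.33%, 14.8% and 7.68%. The promoter of *GBF3*, which itself encodes a G-box-binding bZIP factor, held 6 ABRE cores, 1 of them after the gene start, and 2 G-boxes, more than that of any other member. Each of the 2 G-boxes lay within an overlapping pair of ABRE cores, 1 core on each strand. The *GBF3* promoter is shown together with that of *CDF2*, both with ABRE cores and G-boxes in capitals. The stretches are chr2:18999930-19000179 (plus strand) and chr5:15878598-15878657 (plus strand), upstream of each gene and outside other annotated genes.
GBF3: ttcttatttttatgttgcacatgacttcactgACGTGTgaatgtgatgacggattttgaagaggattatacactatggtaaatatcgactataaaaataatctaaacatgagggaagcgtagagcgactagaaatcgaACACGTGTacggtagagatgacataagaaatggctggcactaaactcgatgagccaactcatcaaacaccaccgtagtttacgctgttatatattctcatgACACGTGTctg
CDF2: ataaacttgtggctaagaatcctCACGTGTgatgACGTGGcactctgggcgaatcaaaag

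The RY motif, CATGCA, is the site to which the B3 domain of ABI3 and its relatives binds in seed promoters. It was found in the windows of 7 members (11.7%), against 17.5% of the other genes of the table and 9.72% of all windows. In *ZHD1*, *SCRM* and *RAP2-2* the window held 2 matches, in *ZHD1* as an overlapping pair on both strands. The stretches, with RY in capitals, are chr5:26135777-26135836 (plus strand), chr3:9835325-9835384 (minus) and chr3:4739349-4739438 (minus), upstream of the gene in each case and outside other annotated genes.
ZHD1: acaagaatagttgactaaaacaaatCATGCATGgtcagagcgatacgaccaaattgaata
SCRM: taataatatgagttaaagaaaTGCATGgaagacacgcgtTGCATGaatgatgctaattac
RAP2-2: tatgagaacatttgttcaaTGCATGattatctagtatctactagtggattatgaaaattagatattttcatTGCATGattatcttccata

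Of the other motifs searched, the W-box of WRKY factors, TTGACC or TTGACT, was in 18.3% of the members' windows, 29.7% of those of the other genes of the table and 32.4% of all windows. The drought-responsive element ACCGAC was in 1 window, that of *ETC1*, and the GCC-box of ethylene response factors, GCCGCC, in none. The windows of *ABI3* and *NFYB6*, whose reads were nearly absent from *cep1*, held none of the motifs searched.

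**Figure D3:**
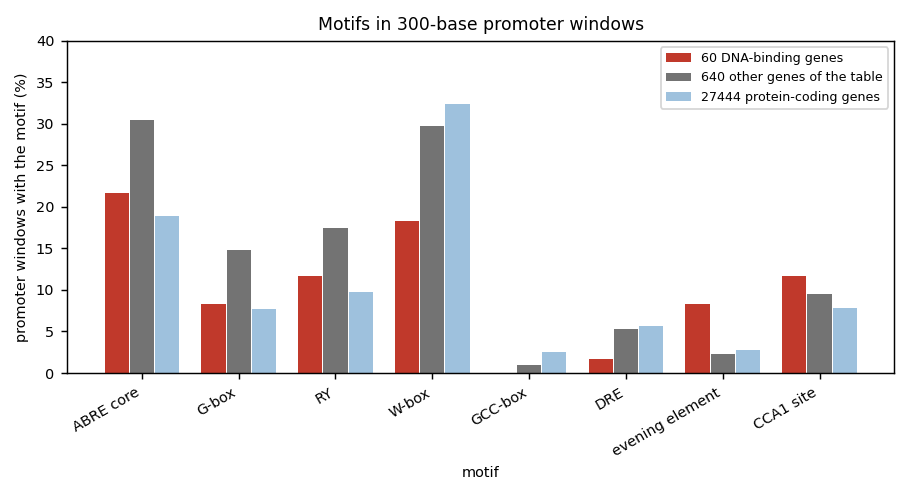
Share (%) of promoter windows of 300 bases that hold each motif on either strand, for the 60 members (red), the 640 other genes of the table found in the reference (grey) and 27444 protein-coding genes (light blue). The members have the highest bar of the 3 sets for the evening element (8.33%) and the CCA1 site (11.7%), and the lowest for the W-box (18.3%), the GCC-box and the drought-responsive element (DRE).

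As the plot of motif shares shows, the ABRE core, the G-box and RY were more frequent in the other genes of the table than in the members. Each bar of the members rests on at most 13 genes.

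Among the regulators of seed development, 4 members were found from a list of 18 genes, and all 4 were at least 4-fold lower in *cep1*, against 46.8% of the table. The list was drawn up with earlier results of these data known, so the count is a description only. *NFYB6*, the LEC1-like subunit of the NF-Y complex that acts in embryos, had 585 reads in the WT against 2 in *cep1*. Its log2 ratio of -8.03 (-11.08 to -6.17) was the lowest among members with a read in *cep1*, a 261-fold difference that rests on those 2 reads. *ABI3*, a B3 factor that directs seed maturation and the response to abscisic acid, had 352 reads in the WT and none in *cep1*, at least 105-fold lower when 3 reads are taken as the limit of detection per library. Its WT level of 5.62 FPKM was the lowest of all members. In both genes, then, the ratio compares a transcript at the limit of detection in *cep1* with a low or moderate level in the WT.

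The other members of that list kept reads in both libraries (here and below, the first of a pair of read counts is that of the WT and the second that of *cep1*). *WRI1*, an AP2/ERF factor that switches on oil synthesis, had 705 reads in the WT against 111 in *cep1*, a log2 ratio of -2.50 (-2.81 to -2.21). *DPBF4*, the bZIP factor also known as EEL that acts in late seed maturation, had 545 and 103 reads, a log2 ratio of -2.24 (-2.56 to -1.93). The difference was smaller for these genes than for *NFYB6* and *ABI3*, with intervals that do not meet theirs. Genes outside the table overlap *DPBF4* on both strands. The seed storage genes moved with this group: all 13 genes of the marker list, for cruciferins, 2S albumins and oleosins, were in the table, with 137 summed reads in *cep1* and 91034 in the WT. In *cep1*, 12 of them were at 0 and *OLEO4* held all 137 reads, while in the WT they ranged from 41.0 to 1219 FPKM. Their part in the result was not tested.

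All 3 members with a B3 domain were at least 4-fold lower, against 46.8% of the table. Besides *ABI3* they were *AT5G32460*, described as REM-like 3, a member of the reproductive meristem branch of the family, with 597 reads in the WT against 5 in *cep1*, and *AT1G49475*, with 471 and 73 reads. The log2 ratios were -6.74 (-8.36 to -5.51) and -2.53 (-2.90 to -2.17). The family thus held a gene without reads in *cep1*, a gene with 5 and a gene with 73, from WT levels between 5.62 and 24.9 FPKM.

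The NF-Y complex binds CCAAT boxes as a trimer of A, B and C subunits, and 5 members encode subunits of it. Apart from *NFYB6*, *NFYC2* had 2178 reads in the WT against 405 in *cep1*, a log2 ratio of -2.26 (-2.42 to -2.11). *NFYA4*, the most abundant of them at 200 FPKM in the WT, had 4022 and 1059 reads and a ratio of -1.76 (-1.86 to -1.66). The remaining members were *NFYA7*, at -1.42 (-1.58 to -1.25) with 1193 and 399 reads, and *NFYC10*, at -1.33 (-1.502 to -1.16) with 1046 and 372 reads, the nearest of the family to the limit of the table. All 3 kinds of subunit were thus represented, with the B subunit far below the rest. *NFYC2* lies under a gene on the other strand over 1417 bases, and *NFYA4* and *NFYA7* are 77.8% identical over most of their coding sequences. Whether reads of these genes were assigned to the wrong gene was not tested.

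The MADS family contributed *SEP2* and *ANR1*, and both were at least 4-fold lower, against 46.8% of the table. *SEP2*, which acts with the other floral homeotic proteins to specify floral organs, had 1005 reads in the WT against 189 in *cep1*, a log2 ratio of -2.25 (-2.48 to -2.02). It was the only one of 15 floral MADS genes in the table, and neither *AP1*, *AP3*, *PI* nor *AG* was among the 733 genes. *ANR1*, known from the growth of lateral roots towards nitrate, had 1095 and 162 reads, a ratio of -2.59 (-2.84 to -2.35) and the higher level in the WT, 47.7 FPKM. The intervals of the pair overlap.

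Of the 5 bHLH factors, *BHLH66* and *ALC* (40%) were at least 4-fold lower, against 46.8% of the table. *BHLH66*, also known as LRL1 and required for root hair growth, had 2973 reads in the WT against 338 in *cep1*, a log2 ratio of -2.97 (-3.14 to -2.81), and was the most abundant of the family in the WT at 101 FPKM. *ALC*, which forms the separation layer along which the fruit opens, had 976 and 129 reads and a ratio of -2.76 (-3.03 to -2.49). It was the only one of 10 fruit valve margin genes in the table. It overlaps a gene on the other strand over 1326 bases, and whether the authors counted reads by strand is not given in the sources used here, so reads of the pair could not be separated.

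The other bHLH members had smaller differences. *BHLH81*, also known as FBH2 and an activator of the flowering gene *CONSTANS*, had a ratio of -1.90 with 1592 and 381 reads. *SCRM*, also known as ICE1, which acts in cold acclimation and in the formation of stomata, had 1427 and 576 reads and a ratio of -1.15 (-1.29 to -1.004). *UNE10*, a relative of the phytochrome-interacting factors, had 1129 and 503 reads and a ratio of -1.003 (-1.16 to -0.85), the closest of all members to the limit at which the authors cut the table. For *UNE10* the counting interval alone reaches past that limit, and the same held for *TGA7*, *NRPB6B*, *RAT5* and *ZAT5*.

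The 7 AP2/ERF members spanned the largest range of levels. *RAP2-3*, a group VII ethylene response factor that takes part in the response to low oxygen, was the most abundant member of all, at 191 FPKM in *cep1* and 730 FPKM in the WT, or 4745 against 17204 reads. Its log2 ratio was -1.69 (-1.74 to -1.65). *RAP2-2*, of the same group, had 9204 and 3697 reads and a ratio of -1.15 (-1.21 to -1.10), so that the intervals of these relatives do not overlap. Together they held most of the reads of the family, which were 10611 in *cep1* and 33574 in the WT.

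At the other end stood *ERF113*, also known as RAP2.6L, a factor of shoot regeneration and stress responses, with 551 reads in the WT against 38 in *cep1*. Its log2 ratio of -3.69 (-4.21 to -3.22) was the lowest of the family and corresponds to a 12.9-fold difference. *RAP2-1*, a DREB-type factor of drought and cold responses, had 819 and 168 reads and a ratio of -2.12 (-2.37 to -1.88). *ADAP*, which takes part in the response to abscisic acid, and *RAP2-13*, another DREB-type factor, had ratios of -1.58, with 817 and 244 reads, and -1.25, with 4274 and 1608 reads. *ADAP* overlaps a gene on the other strand over 1436 bases. With *WRI1*, 3 of the 7 (42.9%) were at least 4-fold lower, close to the 46.8% of the table. The 7 genes were also the members annotated with ethylene-activated signalling, a term carried by 8 of the 733 genes of the table.

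The one WRKY member was *WRKY27*, known from the vascular symptoms of bacterial wilt. It had 391 reads in the WT against 65 in *cep1*, a log2 ratio of -2.42 (-2.83 to -2.04), and 14.2 FPKM in the WT. None of the 8 WRKY genes on a list of senescence regulators was in the table, and *WRKY27* was the only gene in it from a list of 10 vascular regulators. Of the bZIP members, the ratio was nearest to -1 for *TGA7*, a TGA factor of the kind that acts with NPR1 in defence, with 1890 and 822 reads and a ratio of -1.04 (-1.16 to -0.92). *GBF3* had 1697 and 661 reads and a ratio of -1.20 (-1.33 to -1.07). Both were well above *DPBF4* in ratio, and *TGA7* was the most abundant of the 3 in the WT, at 49.4 FPKM.

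Zinc finger proteins formed the largest named family, with 8 members, of which 5 (62.5%) were at least 4-fold lower, against 46.8% of the table. In so small a family this share is not a result about zinc finger genes. The C2H2 factors *ZFP5* and *ZFP6* act in the formation of trichomes under gibberellin and cytokinin. *ZFP5* had 525 reads in the WT against 52 in *cep1*, a log2 ratio of -3.17 (-3.61 to -2.76), the lowest of the family, whereas *ZFP6* had 1208 and 464 reads and a ratio of -1.22 (-1.37 to -1.06). These related genes therefore differed from each other by more than their counting error. The other C2H2 members were *ZFP2*, which acts in the shedding of floral organs and was the most abundant of the family at 197 FPKM in the WT, with 2976 and 1129 reads and a ratio of -1.23 (-1.33 to -1.14), and *ZAT5*, with 1186 and 481 reads, nearest to the limit at -1.14 (-1.29 to -0.98).

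The zinc finger homeodomain genes *ZHD11* and *ZHD1* were similar to each other. *ZHD11*, also known as ZFHD1 and induced by drought and abscisic acid, had 628 and 94 reads and a log2 ratio of -2.58 (-2.90 to -2.26). *ZHD1* had 426 and 69 reads and a ratio of -2.46 (-2.85 to -2.09). The intervals overlap almost entirely, and both genes were at least 4-fold lower, against 46.8% of the table.

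The B-box and Dof factors that connect light and day length with flowering gave 4 members from a list of 21 genes, 20 of which could be matched. *COL2*, a close relative of CONSTANS, had 2883 reads in the WT against 371 in *cep1*, a log2 ratio of -2.79 (-2.95 to -2.64). *BBX25*, which interacts with the light regulators HY5 and COP1, had 2210 and 475 reads and a ratio of -2.05 (-2.20 to -1.91). The B-box genes were thus both at least 4-fold lower, against 46.8% of the table, although for *BBX25* the interval crosses -2. *CDF2* had 1368 and 332 reads and a ratio of -1.88 (-2.06 to -1.70), and *CDF1*, a Dof factor that represses *CONSTANS*, had 1499 and 564 reads and a ratio of -1.25 (-1.39 to -1.11). *COL2* overlaps genes on the other strand over 771 and 688 bases, and the coding sequence of *CONSTANS* is its nearest copy at 72.6% identity.

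**Figure D4:**
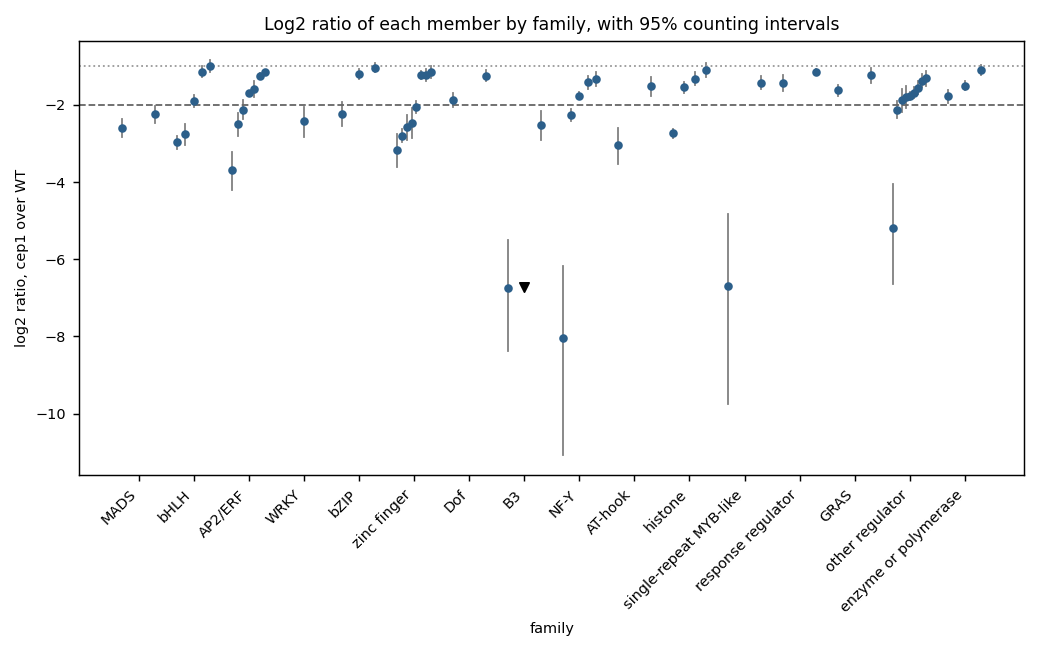
Log2 ratio of *cep1* to WT for each of the 60 members by family (points), with exact 95% intervals from the read counts (bars), which cover counting error only. The black triangle is the bound for *ABI3*, which had no read in *cep1*, the dotted line marks the limit of the table at -1 and the dashed line marks -2; the bars are long for *NFYB6*, *ETC1*, *AT5G32460* and *ULT2*, which had few reads in *cep1*.

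The plot of ratios by family shows that B3, MADS and the single WRKY gene lay wholly at or below -2, that Dof, GRAS, response regulators and the enzymes lay wholly above it, and that the other families held genes on both sides. With library totals *CDF2* and *NTH2* also fall below -2. With 1 to 9 genes in a family, no family was compared with another by a test, and each family's count at -2 or below stands beside 46.8% for the table as a whole.

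Genes that pattern the epidermis were met in several families. A list of 20 root hair and epidermis genes had 3 in the table, *BHLH66*, *ZFP5* and *ETC1*, and all 3 were at least 4-fold lower, against 46.8% of the table. *ETC1*, a small single-repeat MYB-like protein that promotes root hair fate and restrains trichomes, had 231 reads in the WT against 2 in *cep1*. Its log2 ratio was -6.69 (-9.74 to -4.82), and its level in the WT was 19.4 FPKM. The annotated term plant epidermis development was carried by these genes and by *SCRM* and *ZFP6*, that is by 5 of 60 members and 7 of the 733 genes. These genes ranged from a near absence of reads in *cep1* for *ETC1* to a ratio of -1.15 for *SCRM*. The other single-repeat member, *RL4*, had 1158 and 385 reads and a ratio of -1.42 (-1.59 to -1.26).

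Regulators linked to abscisic acid and drought gave 4 members from a list of 20 genes, *RAP2-1*, *ERF113*, *ZHD11* and *HIS1-3*, and all 4 were at least 4-fold lower, against 46.8% of the table. The list does not hold every such gene: *ADAP* (-1.58), *RAP2-13* (-1.25), *GBF3* (-1.20) and *AT1G07660* (-1.32) also carry a term for abscisic acid or water deprivation and were not 4-fold lower. *HIS1-3*, a linker histone induced by drought and abscisic acid, had 4805 reads in the WT against 646 in *cep1*, a log2 ratio of -2.73 (-2.85 to -2.61). At 313 FPKM in the WT it was second in level only to *RAP2-3* among the members. The core histone genes differed less, with ratios of -1.54 (-1.69 to -1.40) for *HTB1*, an H2B gene with 1626 and 498 reads, -1.32 for *AT1G07660*, an H4 gene with 1020 and 365, and -1.09 (-1.27 to -0.92) for *RAT5*, an H2A gene with 908 and 380. These 3 values are uncertain, since reads of histone genes can be shared between copies. The nearest copies are 81.4%, 98.1% and 86.1% identical in coding sequence, and none of them was in the table. *HIS1-3* had no such copy at over 80% of its length.

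*ULT2*, one of the ULTRAPETALA proteins that limit the size of shoot and floral meristems, had 245 reads in the WT against 6 in *cep1*, a log2 ratio of -5.19 (-6.65 to -4.05). It overlaps a gene on the other strand by 13 bases only. The AT-hook proteins, which bind AT-rich DNA, were *AHL8*, with 397 and 43 reads and a ratio of -3.04 (-3.53 to -2.59), and *AHL1*, with 606 and 189 reads and a ratio of -1.52 (-1.76 to -1.28). The intervals of the AT-hook genes do not overlap.

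The auxin, response regulator and GRAS proteins were as follows. *IAA28*, a repressor of auxin responses, had 4520 reads in the WT against 1182 in *cep1*, a log2 ratio of -1.77 (-1.86 to -1.68), at 247 FPKM in the WT. *ARR11*, a response regulator of cytokinin signalling, had 705 and 233 reads and a ratio of -1.43 (-1.65 to -1.22). *APRR2*, which shares the receiver-like domain, had 3920 and 1574 reads and a ratio of -1.15 (-1.24 to -1.07). Among the GRAS proteins, *SCL3*, which promotes gibberellin responses, had 844 and 321 reads and a ratio of -1.23 (-1.42 to -1.04), and *SCL4* had 1839 and 532 reads and a ratio of -1.63 (-1.77 to -1.49). The ratios of these 5 genes lay between -1.77 and -1.15. Members outside them that carry hormone terms varied. *ABI3*, *ERF113* and *ZFP5* had far lower ratios, whereas *ADAP* (-1.58), *RAP2-13* (-1.25), *ZFP6* (-1.22) and *GBF3* (-1.20) lay within that range.

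The remaining regulators were *AT5G28300*, a trihelix factor that binds calmodulin, with 956 and 196 reads and a log2 ratio of -2.12 (-2.35 to -1.90), and 6 genes with ratios between -1.88 and -1.31. Of these, *BLH5*, a BELL homeodomain protein, had 503 and 122 reads (-1.88). *SPL4*, which promotes flowering and the change to the adult phase, had 515 and 132 reads (-1.80). These were among the less abundant members, at 17.2 and 29.6 FPKM in the WT. *LSH10*, of the light-dependent short hypocotyl family, had 1911 and 531 reads (-1.68), and *AT3G54390*, described only as a sequence-specific factor, had 1221 and 370 (-1.56). *TZP*, a zinc knuckle protein of growth in the morning, had 1190 and 410 reads (-1.37), and *AT3G60110*, a bromodomain protein, had 773 and 278 reads and the ratio nearest to -1 of this group, -1.31 (-1.51 to -1.11).

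The enzymes and polymerase parts all lay above -2 on the authors' scale. *NTH2*, an endonuclease III of base excision repair, had 1335 reads in the WT against 348 in *cep1*, a log2 ratio of -1.78 (-1.95 to -1.60). *SIGE*, a sigma factor of the plastid RNA polymerase, had 2867 and 904 reads and a ratio of -1.501 (-1.61 to -1.39). *NRPB6B*, a subunit of nuclear RNA polymerases, had 1608 and 675 reads and a ratio of -1.09 (-1.22 to -0.96). Its coding sequence is 90.3% identical to that of another subunit gene outside the table, so its count is uncertain.

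Position in the genome was examined last. In the reference annotation, 6 of the 60 members (10.0%) lay next to another gene of the table, against 11.9% of the table's genes that could be placed. *NFYC10* lay beside AT5G38160, with 8874 reads in the WT against 1 in *cep1*, whereas *NFYC10* itself had 1046 and 372. *ABI3* lay beside the kinase-like gene *TMKL1*, with 2628 and 689 reads. Neighbouring genes could thus have very different ratios. An overlap with another annotated gene was found for 12 members, and 9 of these 12 were at least 4-fold lower, against 15 of the 48 members without one and 46.8% of the table. This split was made after the data had been seen, and the difference was not tested. None of the overlapping genes was in the table, so their own reads were not analysed here and their part in the members' counts was not tested.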

How the data were processed

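Per the labels, RNA was taken from mature main stems of *cep1* and WT plants. The submitters' processing notes name TopHat2 2.0.12, Bowtie2 2.2.3 and HTSeq 0.6.1, and the genome build is not given in the sources used here. For each gene the authors deposited raw read counts, FPKM values (scaled by library total and gene length) and normalized read counts, a signal that went into DEGseq. The deposited fold changes and p-values hold the authors' own comparison and were not used, and 2 deposited columns of group FPKM were left out as repeats. The counts, FPKM and signal columns were read as deposited.

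The table holds only genes that the authors marked as lower in *cep1*, so TMM, DESeq2 factors and a whole-genome test could not be had, and with 1 library per genotype the quasi-likelihood fit of edgeR could not be made. Log2 ratios were taken from the raw counts and the factors between raw and normalized counts, 20.3 in *cep1* and 22.8 in the WT, with exact (Clopper-Pearson) 95% intervals. A count of 0 was bounded at 3 reads per library, or 1.36e-05% of the *cep1* reads. Library totals were recovered from count, length and FPKM. FPKM equalled the count per length and total to within 1% for 45 of 60 members in the WT and for 44 of 59 in *cep1*, and was up to 1.17 times larger for the others. The intervals were tested on simulated data. Python 3.11.15, numpy 2.4.6, pandas 2.3.3, scipy 1.17.1 and matplotlib 3.10.9 were used.

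Every member was to be accounted for. Read counts, ratio and interval were given for the members of each family with the lowest ratio, the highest WT FPKM and the ratio nearest to -1, for those with at most 3 reads in *cep1* and for those on the gene lists. The members and lists were chosen with earlier results of these data known, and families were read from the deposited descriptions. Promoter windows came from the RefSeq TAIR10.1 genome by locus tag. Only 1 of the 60 members has the same start and end there as in the table, so window positions refer to the reference. Alternatives were other scalings, FPKM with added constants, other limits and other memberships.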

Additional observations from a re-analysis of the deposited data

How the results depend on the processing

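The direction of every ratio is set by the table, so the alternatives bear on sizes only. Scaling to library totals moved 40 of 59 ratios beyond their own counting interval and left 19 within it. The count of 24 members at least 4-fold lower was 8 at a log2 ratio of -3 or below, 39 at -1.5 or below, 40 with all 87 DNA-binding genes and 15 among the 48 members that overlap no other gene, an alternative chosen after seeing the data. The alternatives not printed gave 17 to 30. At -3 or below the table had 205 of its 733 genes. For the other changed limits and scalings the table's share was not computed, so those counts cannot be set against the table. The median of -1.76 became -2.0 with library totals, with FPKM ratios and with FPKM plus 0.1, and -1.56 without overlapping members. The 1 member without reads became 3 at up to 3 reads, 2 with all DNA-binding genes, and 0 with at least 500 WT reads or without the seed regulators. The WT share of 0.522% became 5.93% of the table's own reads, 0.510% with at least 500 WT reads, 0.431% with the transcription factor term, 0.911% with all DNA-binding genes, 0.511% without seed regulators and 0.457% without overlapping members.

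No paired analysis was possible because each genotype has 1 library, and leaving out a replicate was not run for the same reason. The depth limits the members with few reads: *NFYB6*, *ETC1* and *ABI3* have ratios that rest on 0 to 2 reads in *cep1*.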
